A study of Mus musculus with 8 samples.

Results

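The clustered protocadherins are 58 gene names of the 36317 in the table, chosen by symbol alone: 14 of the Pcdh alpha cluster (Pcdha1 to Pcdha12, Pcdhac1 and Pcdhac2), 22 of the Pcdh beta cluster and 22 of the Pcdh gamma cluster. Their transcripts were measured by bulk RNA sequencing in 8 mouse embryo libraries, 2 for each of 4 groups. At embryonic day (E) 13.5 these were spinal cord and forebrain of wild-type (wt) embryos. At E15.5 they were wt and EED-cKO forebrain, where EED-cKO is a conditional knockout of Eed, which encodes a core subunit of Polycomb repressive complex 2. The title of the series names Sox1-Cre, a Cre active in the early neural lineage, so cells of other lineages in the dissected tissue are not its target. The strain, and whether wt embryos carried Cre or floxed alleles, are not given in the sources used here. The labels do not say that the libraries of a group came from separate embryos, so the p-values speak of the spread between libraries alone.

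Clustered protocadherins are single-pass adhesion proteins that bind like molecules on neighbouring neuronal membranes and let a neuron tell its own branches from those of other neurons. Each variable exon has its own promoter, and in the alpha and gamma clusters the transcript of every variable exon is spliced to constant exons shared by the whole cluster, whereas each beta gene is a single-exon unit. Most variable promoters are chosen at random in each neuron with the help of CTCF and cohesin. The C-type isoforms (Pcdhac1, Pcdhac2, Pcdhgc3, Pcdhgc4 and Pcdhgc5) are instead used more evenly by all neurons or by particular cell types. Pcdhb1, Pcdhac2, Pcdhgc4 and Pcdhgc5 lack the promoter element common to the others.

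In GENCODE's GRCm38 annotation the 3 clusters lie in a row on the plus strand of chromosome 18, alpha from 36930184 to 37187661 (13 of 14 members matched, without Pcdha10), beta from 37264938 to 37524479 and gamma from 37661793 to 37841873. Of the exonic bases of an alpha member, a median of 53.5% also belonged to another member, and of a gamma member 44.8%. Beta members shared none, apart from Pcdhb21 (9.67%) and Pcdhb22 (6.88%). Of all 50-base windows in the transcripts, 50 bases being the read length, a median of 59.3% per alpha member, 44.9% per gamma member and 4.26% per beta member also occurred in another member. How reads in shared exons were counted is not given in the sources used here. A value of an alpha or gamma isoform may therefore hold reads of other isoforms of its cluster, while beta values are less exposed to this. Windows can also occur in annotated genes outside the clusters' members, and with these counted the share was highest for Pcdhga10 (99.0%), Pcdha4 (98.4%), Pcdhgc3 (76.3%) and Pcdhga11 (72.4%), and among beta members for Pcdhb12 (64.2%).

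Levels were deposited as RPKM (read density scaled to transcript length and library size) rounded to 0.1, so the number of reads behind a value is unknown. The names of the 4 E15.5 columns were matched in a restored alphabetical order. Of the 58 members 15 kept their row and 43 moved (11 alpha, 21 beta and 11 gamma), but each cluster filled the same set of rows in both orders, so the sum over a cluster does not depend on the order. With the restored order the level profile of wt forebrain at E13.5 and at E15.5 correlated across the members of a cluster with r = 0.583 (alpha), 0.923 (beta) and 0.898 (gamma), against 0.118, 0.169 and 0.771 in the deposited order. These are descriptions over genes of the same libraries. The RPKM of all genes summed to between 378294 and 397320 in the E13.5 libraries and between 761647 and 843296 in the E15.5 libraries, and 2 genome builds, mm9 and GRCm38, are named without saying which served which library. Levels at the 2 ages are therefore set side by side and not tested, since age, scale and build cannot be told apart.

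Gamma isoforms made up most of the clustered protocadherin signal in every library. The summed level of the gamma cluster was 142.9 and 136 RPKM in wt E13.5 forebrain, 167.4 and 171.9 in wt spinal cord, 275 and 229.3 in wt E15.5 forebrain and 322.4 and 309.8 in EED-cKO forebrain. The alpha cluster summed to 15.7 and 14.2, 34.7 and 35.9, 68.6 and 52.7, and 76.2 and 71.3 RPKM in the same order of groups. The beta cluster summed to 16.7 and 17.8, 36.9 and 39.6, 58.9 and 53.4, and 62.7 and 61.4 RPKM. In each cluster the spinal cord libraries lay above the E13.5 forebrain libraries and the EED-cKO libraries above the wt E15.5 libraries. Between the wt E15.5 libraries, however, the sum of each cluster differed more than within any other group.

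**Figure D1:**
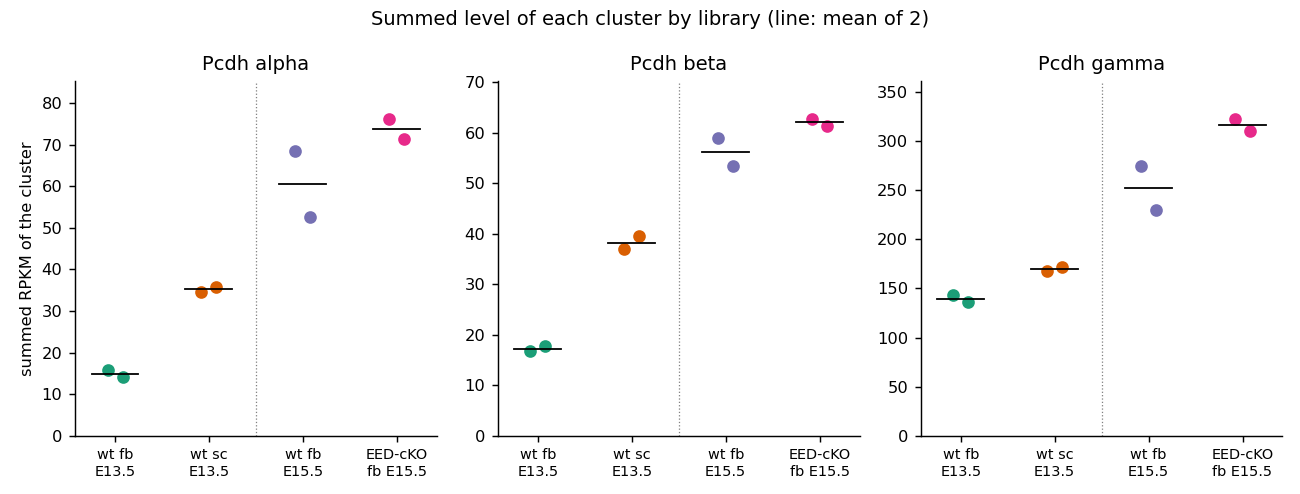
Summed RPKM of the Pcdh alpha, beta and gamma clusters (y axes, from 0) in each of the 8 libraries, with a line at the mean of each group of 2; the dotted line separates E13.5 from E15.5, whose scales differ. Alpha and beta are at 34.7 to 39.6 RPKM in spinal cord against 14.2 to 17.8 in E13.5 forebrain, while the gamma sums differ less.

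A single isoform, Pcdhgc3, which promotes dendrite branching, was the most abundant member in all 8 libraries. It stood at 59.9 and 58.9 RPKM in E13.5 forebrain, 57.0 and 58.5 in spinal cord, 89.8 and 79.8 in wt E15.5 forebrain and 85.2 and 77.9 in EED-cKO forebrain. In wt E13.5 forebrain the next gamma members were Pcdhga11 (11.8 ± 0.212 RPKM, SD, n = 2) and Pcdhgb6 (9.45 ± 0.919), and the lowest was Pcdhgc5 (0.700, the same in both libraries). Among beta members Pcdhb17, Pcdhb7 and Pcdhb20 held the 3 highest means in all 4 groups, from 1.35 to 7.65 RPKM. Pcdhb1 was the lowest beta member, with 0.1 RPKM in both E13.5 forebrain libraries, 0.2 in EED-cKO replicate 2 and a listed value of 0 in the other 5 libraries.

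The alpha cluster had a different leading isoform at each age. Pcdha2 was at 7.9 and 7.1 RPKM in E13.5 forebrain and 18.2 and 19.3 in spinal cord, but at 6.2 and 4.4 in wt E15.5 forebrain and 5.6 and 5.9 in EED-cKO forebrain. It held 50.2 ± 0.225% and 53.1 ± 0.927% (SD, n = 2) of the alpha sum in the E13.5 tissues, and 8.69 ± 0.487% and 7.81 ± 0.655% in the E15.5 groups. Pcdhac2, a C-type isoform required for the even spacing of serotonergic axons, led at E15.5 with 12.1 ± 2.55 RPKM in wt and 14.4 ± 1.63 in EED-cKO. Pcdha4, Pcdha6 and Pcdha7 were each listed at 0 in both spinal cord libraries, and Pcdha7 also in both E13.5 forebrain libraries, although they stood at 1.5 to 4.4 RPKM in the wt E15.5 libraries. Because these isoforms share exons, and because the E13.5 and E15.5 columns may rest on different builds, isoform use at the 2 ages was not compared further.

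**Figure D2:**
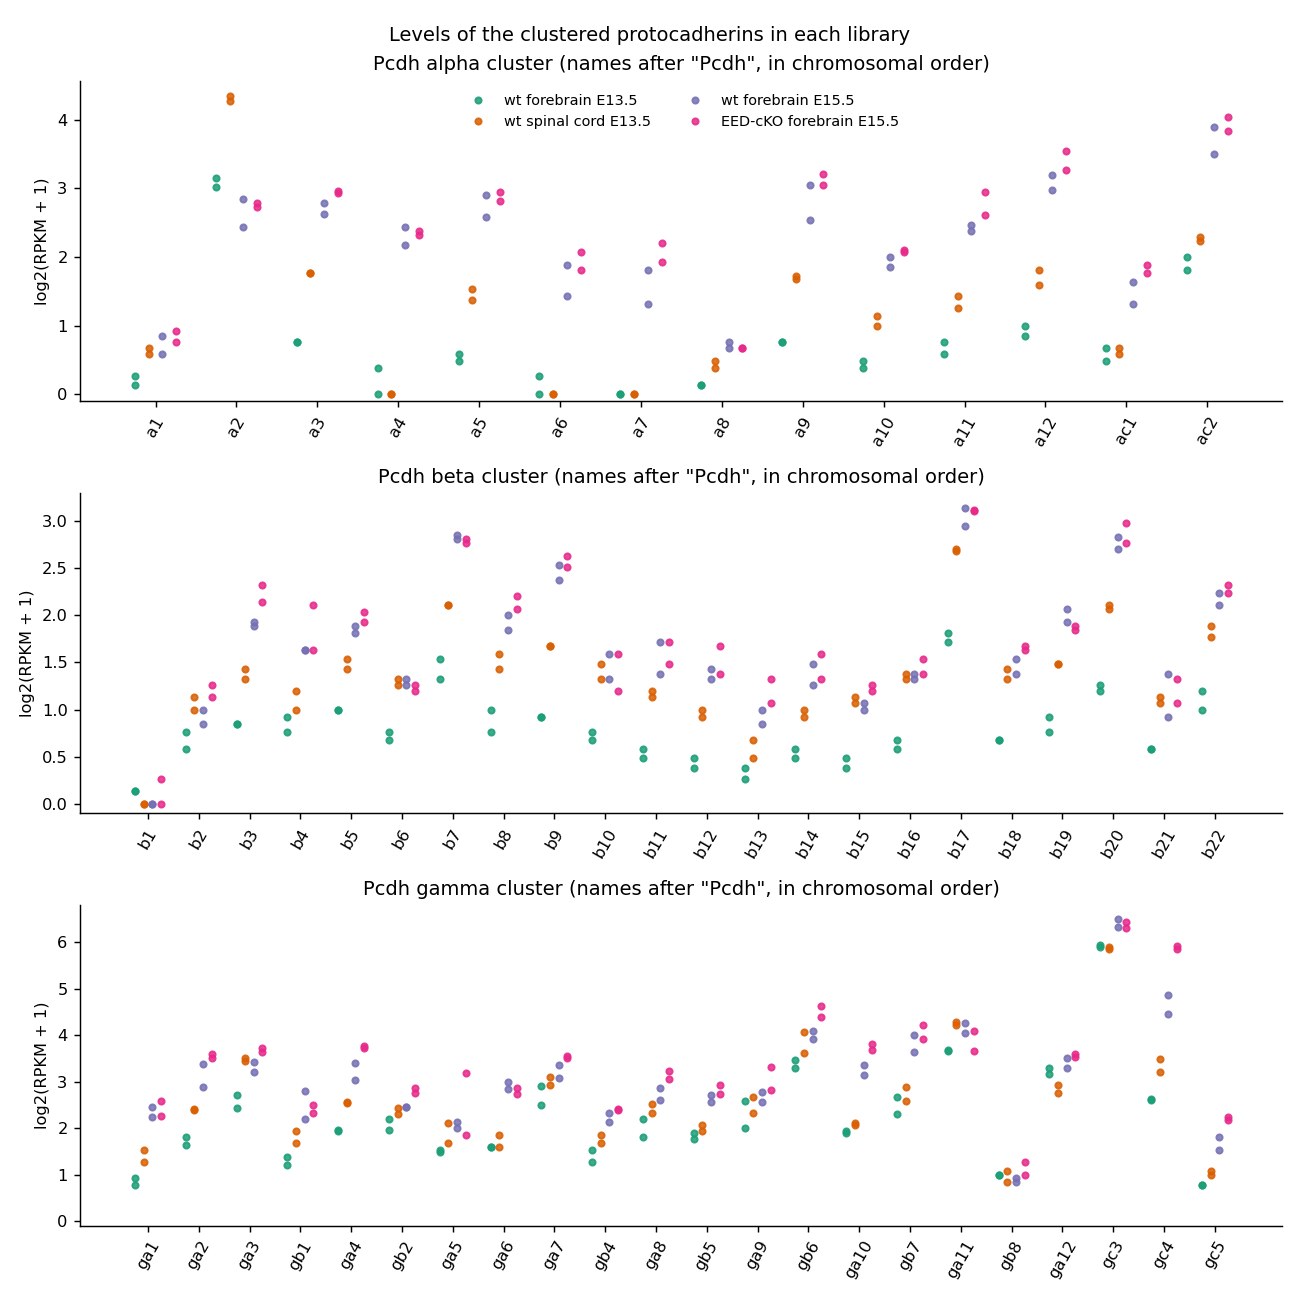
Level of each member as log2(RPKM + 1) (y axes) in each library, 1 point per library and 1 colour per group, with the members of each cluster in chromosomal order (x axes). Pcdhgc3 is the highest point in every group, Pcdha2 stands above the other alpha members only at E13.5, and Pcdhgc4 in EED-cKO forebrain (56.5 and 59.1 RPKM) lies above the other 3 groups.

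Members were tested with limma on log2(RPKM + 1) over all 8 libraries, with a call meaning p under 0.05 after Benjamini-Hochberg adjustment over the 17022 genes at 1 RPKM or more in at least 2 libraries. This filter left out Pcdha1, Pcdha8 and Pcdhb1, so 12 alpha, 21 beta and 22 gamma members were tested. Changes are given on this scale with their standard error (SE), and understate the fold of low members.

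Spinal cord was compared with forebrain, both wt at E13.5, to ask how the clusters differ between regions of the normal central nervous system. Nearly all beta members and most alpha members were higher in spinal cord, while the gamma cluster was mixed. Of the 55 tested members 32 rose and 1 fell, where 45.7% of all tested genes were called, 21.8% as higher and 23.9% as lower. By cluster, 19 of 21 beta, 7 of 12 alpha and 6 of 22 gamma members rose, with median changes of 0.63, 0.65 and 0.34 against 0 for all tested genes. Over all 58 members, untested ones included, the libraries of the tissues did not overlap for 47 that were higher in spinal cord and 3 that were lower, against 37% and 39.3% of tested genes.

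In the alpha cluster the largest rise was that of Pcdha2, from 7.9 and 7.1 RPKM in forebrain to 18.2 and 19.3 in spinal cord (log2 1.22 ± 0.14, limma adjusted p = 0.000444). Pcdha3 went from 0.7 RPKM in both forebrain libraries to 2.4 in both spinal cord libraries (log2 1.0 ± 0.09, limma adjusted p = 0.000144). Both are ordinary variable isoforms, the kind whose promoters are drawn at random. Pcdha9 rose from 0.7 RPKM in both libraries to 2.2 and 2.3 (log2 0.93), Pcdha5 by 0.92, Pcdha12 by 0.77, Pcdha11 by 0.67 and Pcdha10 by 0.64. The C-type isoforms of the cluster were not called. Pcdhac1 was at 0.6 and 0.4 RPKM in forebrain and 0.6 and 0.5 in spinal cord (log2 0.05 ± 0.13, limma adjusted p = 0.794), values that overlap. Pcdhac2 was at 3.0 and 2.5 RPKM against 3.7 and 3.9 (log2 0.36 ± 0.15, limma adjusted p = 0.0921), which do not overlap. Its share of the alpha sum was 18.4 ± 1.06% in forebrain and 10.8 ± 0.142% in spinal cord. Without Pcdha2, the other alpha members summed to 7.8 and 7.1 RPKM in forebrain and 16.5 and 16.6 in spinal cord. Because alpha members share exons, these values may still hold reads of Pcdha2, and its part in the higher alpha sum was not tested.

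Beta members were at low levels, and fewer of them reached 1 RPKM in forebrain than in spinal cord. Of 22 members, 5 and 6 reached 1 RPKM in the forebrain libraries and 18 and 20 in the spinal cord libraries. Pcdhb17, the most abundant, rose from 2.3 and 2.5 RPKM to 5.4 and 5.5 (log2 0.92 ± 0.09, limma adjusted p = 0.000269). Pcdhb20 rose from 1.4 and 1.3 to 3.3 and 3.2 RPKM (log2 0.86 ± 0.10), and Pcdhb9 from 0.9 in both to 2.2 in both (log2 0.75 ± 0.09). In each of these the libraries of the tissues were well apart. The changes of all 21 tested members lay between 0.26 and 0.92. Pcdhb4 (log2 0.26 ± 0.16, limma adjusted p = 0.242) and Pcdhb13 (0.26 ± 0.12, adjusted p = 0.121) were not called, although their spinal cord libraries were above both forebrain libraries. As a share of the beta sum Pcdhb17 was at 13.9 ± 0.193% in forebrain and 14.3 ± 0.527% in spinal cord, Pcdhb15 at 2.02 ± 0.319% and 3.02 ± 0.335%, and Pcdhb4 at 4.62 ± 0.611% and 3.0 ± 0.405%.

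The gamma cluster has A-type, B-type and C-type members that share the same constant exons. Of its A-type members 5 of 12 rose and 1 fell, none of the 7 B-type members was called, and of the C-type members Pcdhgc4 rose. Pcdhga3 rose from 5.5 and 4.4 RPKM to 10.4 and 9.8 (log2 0.91 ± 0.12, limma adjusted p = 0.000858). The other A-type members that rose were Pcdhga2 (log2 0.67), Pcdhga4 (0.60), Pcdhga11 (0.58) and Pcdhga1 (0.55). Pcdhga12 was the sole member that fell, from 7.9 and 8.8 RPKM to 5.7 and 6.6 (log2 −0.39 ± 0.11, limma adjusted p = 0.0231). That call was lost when any of 4 libraries was left out (E13.5 forebrain replicate 2, spinal cord replicate 1 or either EED-cKO library; highest adjusted p = 0.141). Pcdhgc4, the gamma isoform on which neuron survival depends in mice, rose from 5.1 and 5.2 RPKM to 8.2 and 10.2 (log2 0.72 ± 0.15, limma adjusted p = 0.00628), though no longer called if spinal cord replicate 2 is left out (adjusted p = 0.0501) or with no filter on low values (0.0512). Pcdhgc3 was at nearly the same level in both tissues (log2 −0.04 ± 0.08, limma adjusted p = 0.709), and Pcdhgc5 at 0.7 in both forebrain libraries and 1.1 and 1.0 in spinal cord (log2 0.27 ± 0.11, adjusted p = 0.0792). As a share of the gamma sum Pcdhgc3 went from 42.6 ± 0.984% in forebrain to 34.0 ± 0.0133% in spinal cord.

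**Figure D3:**
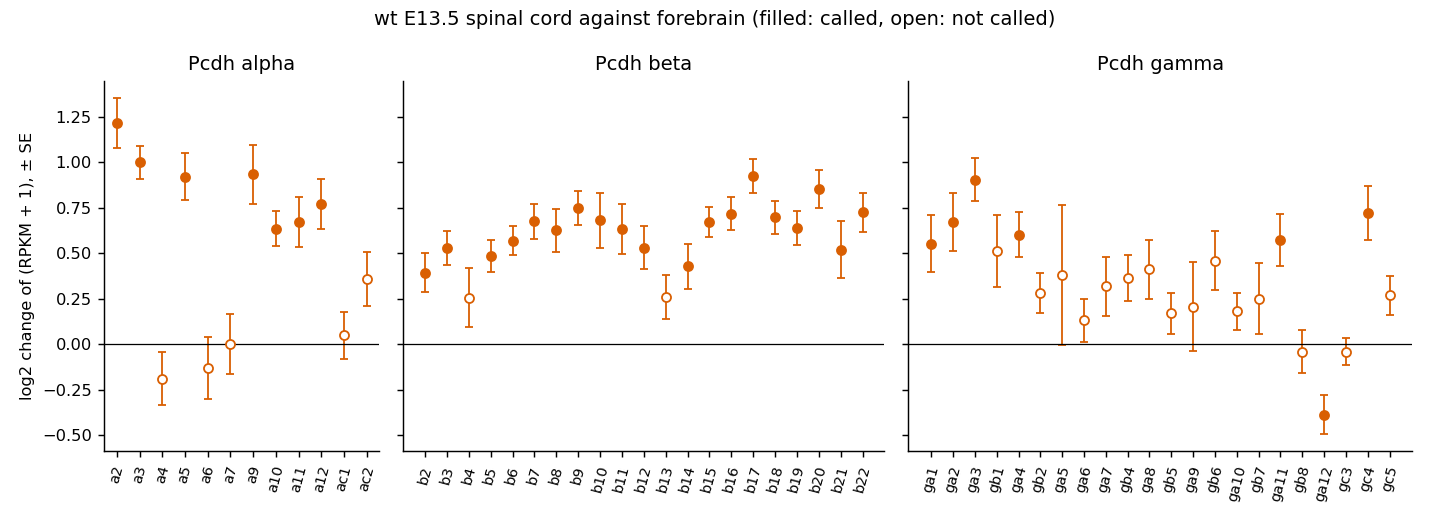
Change of each tested member between wt E13.5 spinal cord and forebrain, as the log2 difference of (RPKM + 1) with its SE (y axis, above 0 is higher in spinal cord), by cluster in chromosomal order; filled points are called. The 21 beta members all lie between 0.26 and 0.92. In the other clusters Pcdha4, Pcdha6, Pcdha7, Pcdhac1, Pcdhgb8 and Pcdhgc3 lie near or below 0, and Pcdhga12 is the single filled point below 0.

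Markers of several cell types also differed between these tissues. All 12 pan-neuronal markers rose in spinal cord, and their summed level was 1872 and 1671 RPKM in forebrain against 3394 and 3199 in spinal cord, with no marker at 0. Of 11 neural progenitor markers 2 rose and 8 fell, where 21.8% of all tested genes were called higher and 23.9% lower. Of the markers of other cells, 5 of 6 of microglia and macrophages and 4 of 9 of meninges and mesenchyme rose (mesenchymal sum 249 and 257 RPKM in forebrain, 403.2 and 433.4 in spinal cord). All 6 erythroid markers and 4 of 5 of choroid plexus fell. Per 1000 RPKM of pan-neuronal markers the alpha sum was 8.39 and 8.50 in forebrain and 10.2 and 11.2 in spinal cord, and the beta sum 8.92 and 10.7 against 10.9 and 12.4. The gamma sum on that scale was 76.4 and 81.4 in forebrain and 49.3 and 53.7 in spinal cord, the opposite order to the plain sum. The marker sum rests on a few abundant genes, and within it Nefl went from a mean of 25.65 RPKM in forebrain to 496 in spinal cord. The part of these cell types in the regional differences was not tested, and in bulk tissue fewer cells of a type and less RNA per cell cannot be told apart.

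At E15.5, EED-cKO was compared with wt forebrain to ask how the clusters change when neural cells lose Eed. Eed itself was at 25.8 and 27.9 RPKM in the wt libraries and 10 and 10.6 in the EED-cKO libraries (log2 −1.30 ± 0.08, limma adjusted p = 8.65e-05). The largest change among the protocadherins was a rise of Pcdhgc4. Of the 55 tested members 9 rose and none fell, where 46.9% of all tested genes were called, 30.2% as higher and 16.7% as lower, so a smaller share of members was called than of genes in general. By cluster 1 of 12 alpha, 1 of 21 beta and 7 of 22 gamma members rose, with median changes of 0.26, 0.11 and 0.33 against 0.08 for all tested genes. After quantile normalization these medians were −0.05, −0.23 and 0.08 against −0.05, and after median ratio scaling 0.15, 0.01 and 0.21 against −0.01, so the direction of the alpha and beta clusters depends on the scaling. Among all genes called, 64.5% were higher in EED-cKO as fitted, 48.8% after median ratio scaling and 45.1% after quantile normalization. Over all 58 members 28 were higher in EED-cKO without overlap and 1, Pcdhb19, was lower, against 42.6% and 27.6% of tested genes.

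Pcdhgc4 was at 28.0 and 20.8 RPKM in wt E15.5 forebrain and 59.1 and 56.5 in EED-cKO forebrain, a ratio of means of 2.37 (log2 1.23 ± 0.15, limma adjusted p = 0.000764). Each EED-cKO library was above both wt libraries by more than the spread within either group. The change was called under every alternative run, log2 1.02 to 1.43 with each library left out in turn (highest adjusted p = 0.013), and 1.09 and 1.16 after median ratio scaling and quantile normalization. Its name kept the same row in both orders of the table. As a share of the gamma sum it went from 9.63 ± 0.785% in wt to 18.3 ± 0.0663% in EED-cKO, against 3.70 ± 0.180% in E13.5 forebrain and 5.42 ± 0.732% in spinal cord. The gamma sum without Pcdhgc4 was 247 and 208.5 RPKM in wt and 263.3 and 253.3 in EED-cKO, a ratio of 1.13 where the whole cluster had 1.25. With the abundant Pcdhgc3 left out as well, it was 157.2 and 128.7 RPKM in wt and 178.1 and 175.4 in EED-cKO, a ratio of 1.24. Because gamma members share exons, these sums may still hold reads of Pcdhgc4. The part of Pcdhgc4 in the higher gamma sum was not tested. Per 1000 RPKM of pan-neuronal markers Pcdhgc4 was at 4.88 and 3.60 in wt and 11.8 and 11.6 in EED-cKO. The cluster sums were higher in EED-cKO on that scale too. The gamma sum was 47.9 and 39.7 in wt and 64.3 and 63.7 in EED-cKO. For alpha it was 11.95 and 9.13 against 15.2 and 14.7, and for beta 10.3 and 9.25 against 12.5 and 12.6. That marker sum rests on a few abundant genes. Its largest part, Tubb3, went from a mean of 2317 RPKM in wt to 1468 in EED-cKO, although 8 of 12 markers had changes above 0.

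The variable exons of Pcdhgc3 and Pcdhgc5 lie on either side of that of Pcdhgc4. Pcdhgc5, just after it, was at 2.5 and 1.9 RPKM in wt and 3.7 and 3.5 in EED-cKO (log2 0.53 ± 0.11, limma adjusted p = 0.00665), and kept its call with each library left out. The call was lost after quantile normalization (log2 0.14, adjusted p = 0.275) and in a limma fit of only the 4 libraries compared (adjusted p = 0.0563). Pcdhgc3, just before it, was at 89.8 and 79.8 RPKM in wt and 85.2 and 77.9 in EED-cKO, values that overlap (log2 −0.05 ± 0.08, limma adjusted p = 0.589). Its share of the gamma sum went from 33.7 ± 1.52% to 25.8 ± 0.906%. The C-type alpha isoforms were not called: Pcdhac1 was at 2.1 and 1.5 RPKM in wt and 2.7 and 2.4 in EED-cKO (log2 0.35 ± 0.13, limma adjusted p = 0.0602), and Pcdhac2 at 13.9 and 10.3 against 15.5 and 13.2 (0.24 ± 0.15, adjusted p = 0.234). Without wt E15.5 replicate 1 both were called (limma adjusted p = 0.0168 and 0.0406). Whether the change of Pcdhgc4 differed from that of Pcdhgc3 or Pcdhgc5 was not tested.

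**Figure D4:**
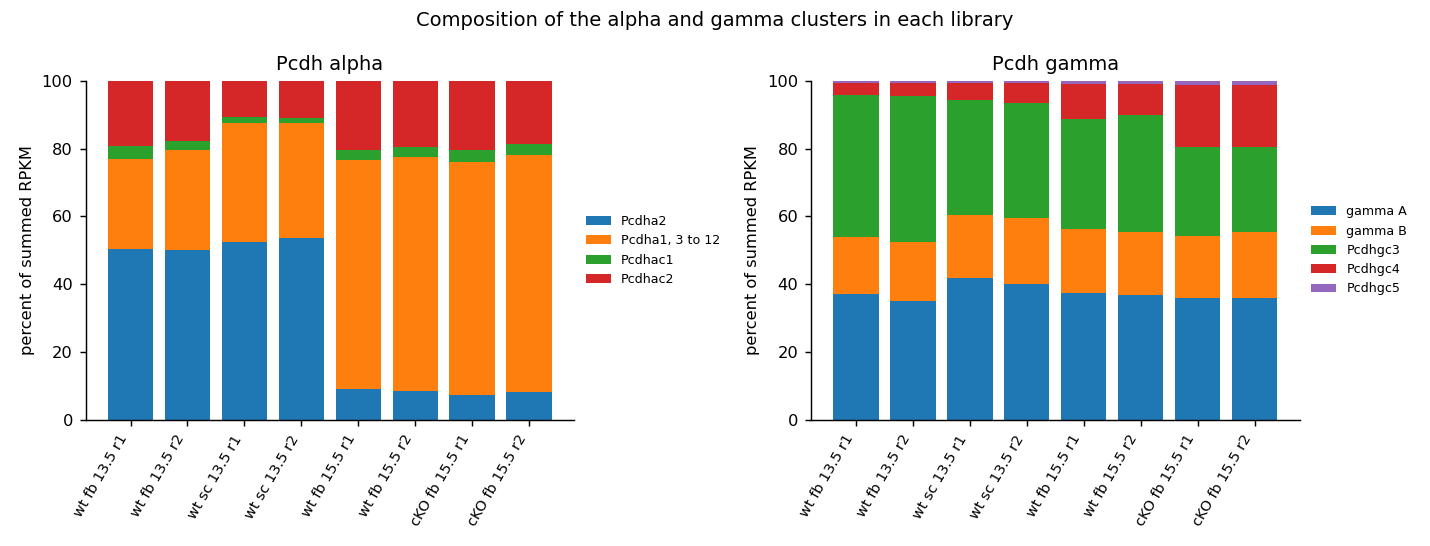
Percent of the summed RPKM of the alpha cluster (left) and of the gamma cluster (right) held by named isoforms or isoform groups (y axes, 0 to 100) in each library. Pcdha2 fills 50.0 to 53.8% of the alpha bars at E13.5 and 7.35 to 9.04% at E15.5, and Pcdhgc4 fills 18.2 to 18.3% of the gamma bars in EED-cKO against 9.07 to 10.2% in wt E15.5 forebrain.

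The other gamma members that rose were ordinary variable isoforms with smaller changes. With each library left out in turn their changes kept their direction, but their calls were lost in some of the 8 fits. Pcdhga4 was at 9.6 and 7.2 RPKM in wt and 12.2 and 12.6 in EED-cKO (log2 0.52 ± 0.12, limma adjusted p = 0.0124), called in 6 of these fits (log2 0.34 to 0.71). Pcdhga10 was at 9.3 and 7.8 against 11.8 and 13.0 RPKM (log2 0.49 ± 0.10, limma adjusted p = 0.00743), called in 7 (0.38 to 0.61). Pcdhgb6, Pcdhga3 and Pcdhgb2 rose by 0.52, 0.37 and 0.35 and kept their calls in 2, 3 and 2 fits, over ranges of 0.40 to 0.64, 0.26 to 0.48 and 0.28 to 0.41. Pcdhga5 shows how far 1 library can go: it was at 3.4 and 3.0 RPKM in wt but 8.1 and 2.6 in EED-cKO, and was not called (log2 0.45 ± 0.38). Pcdhga11, the second most abundant gamma member at E13.5, had the lowest change, from 18.2 and 15.5 RPKM to 16.0 and 11.6 (log2 −0.28 ± 0.14, limma adjusted p = 0.148), and its groups overlap.

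On the log2(RPKM + 1) scale, which understates the fold of low members, beta members moved little. Of all 22, 7 were higher in EED-cKO without overlap and 1 was lower, against 42.6% and 27.6% of tested genes. Pcdhb17 was at 7.8 and 6.7 RPKM in wt and 7.6 and 7.7 in EED-cKO (log2 0.07 ± 0.09, limma adjusted p = 0.567), and Pcdhb7 at 6.2 and 6.0 against 6.0 and 5.8 (−0.04 ± 0.10, adjusted p = 0.762). Both sets of values overlap between the genotypes. The beta member that rose was Pcdhb3, at 2.7 and 2.8 RPKM in wt and 3.4 and 4.0 in EED-cKO (log2 0.32 ± 0.10, limma adjusted p = 0.0294), called in 3 of 8 fits with a library left out (log2 0.23 to 0.42). Pcdhb3 is in a moved row, and in the deposited order its change was 0.053 (limma adjusted p = 0.807). The changes of all 21 tested beta members lay between −0.13 and 0.32. In the alpha cluster Pcdha7, at 2.5 and 1.5 RPKM in wt and 3.6 and 2.8 in EED-cKO, rose (log2 0.50 ± 0.17, limma adjusted p = 0.0427), and was called in 1 of 8 such fits (0.26 to 0.74). All 12 tested alpha members had changes above 0, from 0.05 to 0.50, a direction that quantile normalization turned in the median. The number of alpha members called rose to 7 without wt E15.5 replicate 1 and was 0 without wt E15.5 replicate 2, so the alpha result depends on which wt library is used. Among all tested genes, too, more were called without wt E15.5 replicate 1 and fewer without wt E15.5 replicate 2. Over all 58 members the wt libraries summed to 402.5 and 335.4 RPKM, and the EED-cKO libraries to 461.3 and 442.5.

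**Figure D5:**
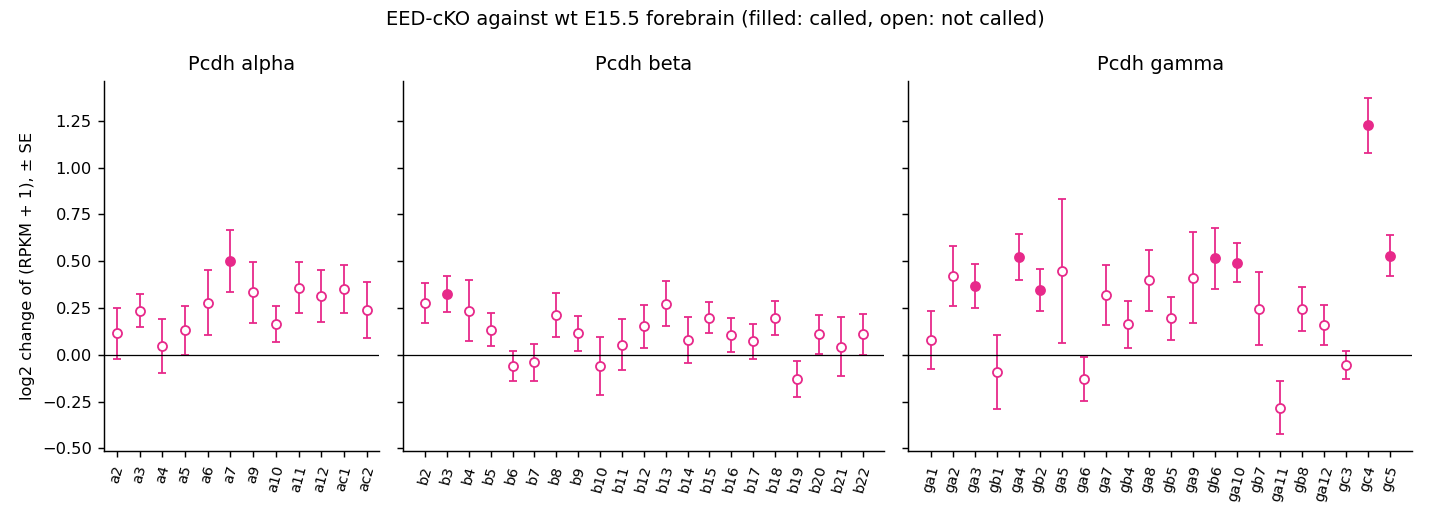
Change of each tested member between EED-cKO and wt E15.5 forebrain, as the log2 difference of (RPKM + 1) with its SE (y axis, above 0 is higher in EED-cKO), by cluster in chromosomal order; filled points are called. Pcdhgc4 at 1.23 stands above all other members, which lie between −0.28 and 0.53; quantile normalization takes the median of the alpha and beta clusters below 0.

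Cell-type markers differed between the genotypes as well. In EED-cKO forebrain all 9 markers of meninges and mesenchyme rose (summed level 248.6 and 189.2 RPKM in wt, 737.9 and 902.6 in EED-cKO), as did all 5 of choroid plexus, all 6 of endothelium and 5 of 6 of microglia and macrophages. All 7 markers of cortical glutamatergic neurons fell (summed level 789.4 and 814.5 RPKM in wt, 98.6 and 94 in EED-cKO), and of 5 forebrain markers 1 rose and 3 fell. The 5 spinal cord markers summed to 34.6 and 29.3 RPKM in EED-cKO, and each had a listed value of 0 in the wt E15.5 libraries. Of 12 pan-neuronal markers 5 rose and 2 fell, with a summed level of 5738 and 5772 RPKM in wt and 5011 and 4865 in EED-cKO. Other lists were mixed: of 11 neural progenitor markers 4 rose and 4 fell, of 6 GABAergic markers 2 rose and 3 fell. Of 6 erythroid markers 1 rose and 1 fell. Among all tested genes 30.2% were called higher and 16.7% lower. No marker of the mesenchymal, choroid plexus, endothelial or microglial lists was at 0 in any E15.5 library. Their part in the rise of Pcdhgc4 and of the other members was not tested.

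Between the comparisons, which have no library in common, the changes of the members showed little relation. Across the 55 tested members Pearson's r was −0.05 and Spearman's rho −0.16, a description over genes that share exons, libraries of 1 table and a common fit. Within clusters r was −0.21 (alpha), −0.41 (beta) and 0.31 (gamma). Pcdha2, which had the largest regional change among alpha members (1.22), had a knockout change of 0.11 ± 0.14 (limma adjusted p = 0.534). Pcdhb17 had 0.92 and 0.07, and Pcdhgc4 0.72 and 1.23. Pcdhga3 and Pcdhga4 were called higher in both comparisons (0.91 and 0.37, 0.60 and 0.52), as were Pcdhgc4 and Pcdhb3 (0.53 and 0.32).

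Protocadherins outside the clusters, which are encoded singly and also mediate adhesion, were listed for comparison. In EED-cKO forebrain, of 13 listed (Cdhr1, once named Pcdh21, included) 5 rose and 2 fell. These are 38.5% and 15.4%, against 30.2% and 16.7% of all tested genes. The count that rose was 9 without wt E15.5 replicate 1, 3 without wt E15.5 replicate 2 and 2 without either EED-cKO library, and the count that fell was 0 without wt E15.5 replicate 1 or either EED-cKO library. Pcdh11x, an X-linked protocadherin, rose from 9.5 and 7.4 RPKM to 17.8 and 15.4 (log2 0.90 ± 0.13, limma adjusted p = 0.00138), with no overlap between genotypes. Pcdh18 (log2 0.75), Pcdh19 (0.74) and Pcdh17 (0.68) also rose, and Pcdh20 fell by 0.44 on the log2 scale. Pcdh17 and Pcdh19 depended on the wt library, with log2 1.03 and 1.08 without wt E15.5 replicate 1 and 0.34 and 0.40 without replicate 2, and both changed sign in the deposited row order. In the regional comparison 6 of the 13 rose (46.2%) and 2 fell (15.4%), against 21.8% and 23.9% of all tested genes. The rises were led by Cdhr1 (log2 1.74) and Pcdh7 (1.34), and Pcdh19 fell by 0.95. Of 18 other listed cadherins, which are calcium-dependent adhesion proteins, 9 rose (50%) and 4 fell (22.2%) in EED-cKO. Among those that rose were the epithelial Cdh1 (log2 1.67), Cdh22 (1.61), the endothelial Cdh5 (1.27) and Cdh3 (1.08). In spinal cord 5 rose (27.8%) and 1 fell (5.56%), the largest rises being those of Cdh13 (1.41), Cdh18 (1.17) and Cdh9 (1.13). With single libraries left out, 6 to 11 rose and 2 to 4 fell in EED-cKO (2 without wt E15.5 replicate 1 or either EED-cKO library), and 4 to 5 rose and 0 to 1 fell in spinal cord.

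Genes for the factors that organise or silence the clusters were listed as well. Of 28 such genes 14.3% were called higher in EED-cKO and 10.7% lower, against 30.2% and 16.7% of all tested genes. In EED-cKO forebrain 4 of 28 rose and 3 fell, but the count that rose was 11 without wt E15.5 replicate 1, 2 without either spinal cord library, 1 without EED-cKO replicate 1 and 0 without EED-cKO replicate 2. The count that fell was 5 without wt E15.5 replicate 2. Dnmt3a, a de novo DNA methyltransferase, rose from 33.6 and 25.2 RPKM to 42.9 and 48.4 (log2 0.63 ± 0.13, limma adjusted p = 0.00705). The cohesin regulator Pds5b rose by 0.48 and the repressor Rest by 0.42, and Trim28 fell by 0.42. The best known regulators of the clusters were not called in this comparison: Ctcf, the insulator protein bound at variable promoters (log2 −0.20 ± 0.11, limma adjusted p = 0.16), Smchd1, which keeps the clusters silent (0.12, adjusted p = 0.324), Setdb1, a histone H3K9 methyltransferase (−0.06, adjusted p = 0.49), and Dnmt3b, which methylates variable promoters (0.20, adjusted p = 0.204). In spinal cord 16 of 28 fell and none rose, where 23.9% and 21.8% of all tested genes did, and 10 fell without spinal cord replicate 1. A link to the members' own changes was not tested. Among those that fell were Dnmt1 (log2 −0.88), Smchd1 (−0.75), the cohesin subunit Rad21 (−0.74), Dnmt3b (−0.73), Ctcf (−0.46) and Setdb1 (−0.30). Smchd1 was at 18.5 and 20.3 RPKM in forebrain and 10.7 and 11.6 in spinal cord, without overlap.

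Of 22 genes for proteins that bind or process clustered protocadherins, 1 rose and 6 fell in EED-cKO forebrain. These are 4.55% and 27.3%, against 30.2% and 16.7% of all tested genes. The focal adhesion kinases Ptk2b and Ptk2, which the alpha and gamma constant domains inhibit, fell by 0.73 and 0.62 on the log2 scale, Axin1, a partner of Pcdhgc3, by 0.37 and the kinase Fyn by 0.30. In spinal cord 4 rose (18.2%) and 6 fell (27.3%), against 21.8% and 23.9% of all tested genes. Wasf2 (log2 −0.96) and Cyfip1 (−0.50) of the WAVE complexes and Axin1 (−0.46) were lower and the presenilin gene Psen2 higher (0.53). The count that rose in spinal cord was 1 or 2 without any single E13.5 or EED-cKO library and 7 without either wt E15.5 library. Genes that flank the clusters on the chromosome have roles outside adhesion. Of 16 tested flanking genes 1 rose (6.25%, Arap3, log2 0.56) and 6 fell (37.5%) in EED-cKO, among them Wdr55 (−0.65), Tmco6 (−0.60) and Zmat2 (−0.46). In spinal cord 3 rose (18.8%) and 8 fell (50%), with Rell2 (1.14) and Apbb3 (0.61) highest and Ndufa2 (−0.43) and Slc35a4 (−0.38) lowest. The count that fell was 3 in EED-cKO without wt E15.5 replicate 2 or EED-cKO replicate 1, and in spinal cord it ranged from 1 (without E13.5 forebrain replicate 2) to 9.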

How the data were processed

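Libraries of dissected embryonic forebrain or spinal cord were read as single-end, 50-base, unstranded reads after NEBNext Ultra preparation, per the labels' protocols. The authors deposited 1 table of RPKM values for the 8 libraries, with 36333 rows, all values whole multiples of 0.1. The submitters' processing notes name mm9 and GRCm38. The aligner and counter are not given in the sources used here, and without counts the depth is unknown. For 16 symbols with several rows, the most abundant row was used. The E15.5 columns were matched to names sorted alphabetically, ignoring case and hyphens.

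The two-sided limma test (version 3.58.1, R 4.3.3, eBayes with a trend) fitted 4 group means to the 8 libraries, leaving 4 residual degrees of freedom. Tested on simulated data of 17022 genes, it found 79 (knockout) and 82 (region) of 100 genes that were given a log2 change of 1. The changed genes had a mean log2(RPKM + 1) above 1, and each gene had the same spread in all groups. Far fewer genes were changed than were called in the data (46.9% for knockout and 45.7% for region). The cutoff under Benjamini-Hochberg adjustment was therefore stricter in the simulation. This recovery does not describe the fits of these data, members at lower levels or groups of unequal spread. An exact permutation test of 2 libraries against 2 cannot go below p = 0.333. Summaries used Python 3.11.15, numpy 2.4.6 and pandas 2.3.3. Named genes were the C-type isoforms, Pcdhb1, the members with the largest called changes or highest and lowest levels in each cluster, fixed regulators and up to 4 called members of each list, with a few members added after their values were seen. Members and lists were chosen with earlier results of these data known. Alternatives were the deposited row order, a pseudocount of 0.1, no filter, median ratio scaling, quantile normalization, only the 4 libraries compared, a replicate block and leaving out each library.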

Additional observations from a re-analysis of the deposited data

How the results depend on the processing

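Depth limits what can be said, since values are rounded to 0.1 RPKM with no counts, and with 2 libraries a group the calls rest on the spread pooled over all groups. Under the deposited row order 2 beta members were called higher in EED-cKO, and no gamma member was called lower in spinal cord. With no filter, 0 alpha, 0 beta and 3 gamma members were called higher in EED-cKO, and 2 gamma members higher and 0 lower in spinal cord. Median ratio scaling left 0 alpha, 0 beta and 4 gamma members higher in EED-cKO. Quantile normalization left 0 alpha, 0 beta and 3 gamma members higher and made 3 beta and 2 gamma members lower. With only the 4 libraries compared, 0 alpha, 0 beta and 1 gamma member were higher in EED-cKO, and 0 gamma members were lower in spinal cord. Over all tested genes that knockout fit called 3393 higher and 1384 lower, against 5149 and 2838 as fitted. A pseudocount of 0.1 left 0 alpha members higher in EED-cKO.

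The replicate numbers do not pair the libraries by label, and same-numbered libraries deviated with r = −0.12 between genotypes and 0.21 between tissues. With the replicate block 3 alpha members were called higher in EED-cKO and 5 gamma members, and in spinal cord 7 alpha, 19 beta and 7 gamma members. With the block Pcdhac1 was called higher in EED-cKO (limma adjusted p = 0.0269). With the numbers crossed between genotypes, a pairing chosen after seeing the data, 1 alpha, 1 beta and 10 gamma members were higher.

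With each library left out in turn, the members called higher in EED-cKO ranged from 0 to 7 (alpha, 7 without wt E15.5 replicate 1), 0 to 1 (beta) and 3 to 6 (gamma), and gamma members called lower from 0 to 1. In spinal cord the ranges were 6 to 8 (alpha), 13 to 19 (beta) and 3 to 8 (gamma) higher, and 0 to 1 gamma members lower. Calls over all tested genes moved between these fits as well. The cause of these moves was not tested.

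Among single genes, quantile normalization reversed the knockout changes of Pcdhac1 (−0.0066), Pcdhgc3 (0.0053), Smchd1 (−0.053), Dnmt3b (−0.15), Pcdha2 (−0.23), Pcdhb3 (−0.068), Pcdhb17 (−0.22), Pcdhb20 (−0.22) and Pcdhgb8 (−0.094), and the regional changes of Pcdhac1 (−0.051) and Pcdhgc3 (0.036). Median ratio scaling reversed Pcdhb17 (−0.040) and Pcdhb20 (−0.00030). The deposited order reversed the knockout changes of Pcdhb7 (0.20), Pcdhb20 (−0.041), Pcdhga11 (0.40), Pcdh19 (−0.37), Pcdh17 (−0.44), Trim28 (0.0050) and Wdr55 (0.66). With single libraries left out, the knockout changes ranged from −0.14 to 0.030 for Pcdhgc3 (above 0 without wt E15.5 replicate 1, and 0.0092 without EED-cKO replicate 2), −0.14 to 0.016 for Setdb1 (above 0 without wt E15.5 replicate 1), −0.093 to 0.32 for Pcdha2 and −0.025 to 0.17 for Pcdhb17 (both below 0 without wt E15.5 replicate 2). The regional change of Pcdhac1 ranged from −0.047 (without E13.5 forebrain replicate 2) to 0.15, and that of Pcdhgb8 from −0.15 to 0.070 (without spinal cord replicate 1).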
